A study of Homo sapiens with 29 samples.

Results

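Interferon-stimulated genes are the transcripts that a cell raises after type I or type III interferon binds its receptor. A list of 41 such genes was matched by symbol to the RNA-seq table of a study of HCT116 cells, and 40 of the 41 were found among 38148 genes. OAS1 was not analysed here. Of the 40, 32 reached the minimum level for testing (0.25 RPM, a gene's reads scaled to its library's total, in at least 4 libraries), within 17973 genes tested in all. In the ChIP-seq table of the same study, 25 of 49916 regions carried the symbol of 17 of these genes.

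HCT116 is an established human colorectal carcinoma line of epithelial origin. The 16 RNA libraries fell into 4 groups of 4: DAXX siRNA with crotonate, non-targeting siRNA with crotonate, DAXX siRNA alone and non-targeting siRNA alone. Crotonate, a short-chain fatty acid from which cells can make the donor for lysine crotonylation, was given at 10 mM. The DAXX siRNA was used at 35 nM and the non-targeting siRNA at 25 nM, so target and dose of the siRNA both differ between those groups. Crotonate lasted 18 h by the series' own design text and 48 h by the protocol given with the samples. For ChIP-seq, an antibody against crotonylated lysine (Kcr) in any protein gave 12 libraries, 4 for each siRNA alone and 2 for each siRNA with crotonate. A single input library came from cells with DAXX siRNA.

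Interferon receptors signal through JAK kinases to a complex that holds STAT2 and IRF9 and binds the interferon-stimulated response element (ISRE) in the promoters of these genes. The products block viral entry, degrade or sequester viral RNA, sense foreign RNA, conjugate the ubiquitin-like protein ISG15 to other proteins, or reshape the proteasome for antigen presentation. Epithelial cells hold many of them at a low resting level without added interferon. DAXX is a chaperone that deposits the histone variant H3.3.

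RNA depth ran between 35003617 and 55128007 recovered reads in genes per library. The targeted transcript, DAXX, stood at 13.1 to 24.2 RPM in the libraries with DAXX siRNA and crotonate, against 95.2 to 102 RPM with non-targeting siRNA and crotonate. Without crotonate it stood at 22.9 to 27.4 RPM with DAXX siRNA, against 101 to 105 RPM with non-targeting siRNA. All 7 epithelial markers examined passed the minimum. The 6 leukocyte markers in the table summed to at most 0.528 RPM in any library, and CLEC4C, a marker of plasmacytoid dendritic cells, had no read in any library. The endothelial and fibroblast markers were higher with crotonate in part: PECAM1 was called with non-targeting siRNA, and COL1A1 was called with DAXX siRNA. Summed fibroblast markers lay at 18.9 to 27 RPM (DAXX siRNA with crotonate), 17.0 to 22.7 (non-targeting siRNA with crotonate), 11.9 to 19.0 (DAXX siRNA) and 11.1 to 21.1 (non-targeting siRNA), with DCN at 0 in every library. Summed endothelial markers reached at most 1.56 RPM, and the part of either list in the results below was not tested. Replicate 2 of the group with non-targeting siRNA alone stood farthest from its replicates (chi-squared of the counts over degrees of freedom 51.2 to 74.7), followed by replicates 1 and 4 of DAXX siRNA with crotonate, 70.6 from each other. In bulk RNA, fewer cells of a type and less RNA per cell cannot be told apart. Replicates are separate libraries whose labels do not state separate cultures, and the p-values cover no more than library-to-library spread.

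Promoter sequence was examined first, since the ISRE defines how these genes are reached by interferon signalling. RefSeq promoters on GRCh38.p14, from 250 bases before to 50 bases after each start, were available for 31 of the 40 genes. The 9 without an entry were IFIT2, IFITM2, IRF7, TRIM22, OAS2, OASL, DHX58, MX2 and USP18. The letters GAAANNGAA, the core of the ISRE, were searched on both strands, with overlapping matches kept. They occurred in 21 of the 31 promoters (67.7%), against 8.29% of all 27305 promoters of that length. TTCNNNGAA, the palindromic gamma-activated site of interferon-gamma targets, occurred in 6 of the 31 (19.4%), against 7.88% of all promoters. The ISRE core was present in 5 of 8 members that were higher with crotonate in the tests below, and in 12 of the 16 tested members that were not called.

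The stretches below each show a run of 1 or more ISRE cores, from 5 promoters of members called with crotonate and 2 of members that were not, ISG15 and BST2. Capitals mark the core GAAANNGAA or its reverse complement, and each sequence reads 5′ to 3′ in the direction of transcription. They lie at chr2:162318816-162318860 (IFIH1, minus strand), chr4:88456983-88457021 (HERC5, plus), chr1:27672328-27672360 (IFI6, minus), chr10:89392496-89392541 (IFIT1, plus), chr10:89327830-89327862 (IFIT3, plus), chr1:1013372-1013416 (ISG15, plus) and chr19:17405734-17405772 (BST2, minus).
IFIH1: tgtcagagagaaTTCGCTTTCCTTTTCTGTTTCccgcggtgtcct
HERC5: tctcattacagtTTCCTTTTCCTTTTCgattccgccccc
IFI6: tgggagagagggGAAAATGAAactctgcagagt
IFIT1: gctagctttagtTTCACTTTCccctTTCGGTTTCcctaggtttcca
IFIT3: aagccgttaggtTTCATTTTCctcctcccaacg
ISG15: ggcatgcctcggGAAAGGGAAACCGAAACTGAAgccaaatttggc
BST2: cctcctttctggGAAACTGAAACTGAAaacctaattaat
The runs of IFIH1 and ISG15 hold 3 overlapping cores, those of HERC5, IFIT1 and BST2 hold 2, and those of IFI6 and IFIT3 hold 1. The whole promoter windows hold 4 cores for IFIH1, 3 each for HERC5, IFI6 and ISG15, and 2 each for IFIT1, IFIT3 and BST2. For IFI6 and IFIT3 the core farthest before the start is the one printed. TRIM21 also has 2 cores, the first of them 17 bases after its start, and is not printed.

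No GAAANNGAA was found in the windows of PSMB9, HERC6, DDX58 or IFI35, all 4 of which were called with crotonate. The PSMB9 window is printed because its transcript had the largest fold change among the called members with either siRNA and because an anti-Kcr region lies over it. It spans chr6:32853942-32854241 on the plus strand of GRCh38.p14, and no letters are in capitals because neither motif was found.
PSMB9: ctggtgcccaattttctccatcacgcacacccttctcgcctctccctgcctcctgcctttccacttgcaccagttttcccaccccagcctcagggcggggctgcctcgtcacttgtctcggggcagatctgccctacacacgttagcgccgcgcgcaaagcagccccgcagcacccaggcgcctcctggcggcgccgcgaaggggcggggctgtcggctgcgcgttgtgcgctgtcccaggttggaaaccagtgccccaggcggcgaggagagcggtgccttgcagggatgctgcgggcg

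Members were called in the crotonate comparisons and not in the siRNA comparisons. Calls over all genes were split alike, at 15.4% in each crotonate comparison. For DAXX siRNA they were 0.406% without crotonate and 1.06% with it. With non-targeting siRNA, 10 of the 32 tested members rose with crotonate and 1 fell, at a Benjamini-Hochberg adjusted p under 0.05 in limma over all 17973 genes. Of all genes tested, 13.1% rose and 2.34% fell in the same comparison. The members' median log2 fold change was 0.34, beside 0.074 for all genes. With DAXX siRNA, 7 members rose with crotonate and 2 fell, where 13.0% of all genes rose and 2.41% fell. The median of the members there was 0.08, beside 0.06 for all genes.

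The crotonate comparisons of the 2 siRNA groups share no library. HERC5, HERC6, IFIH1, OASL, PSMB9, TRIM21 and USP18 were called higher in both, and IFI35 was called lower in both. DDX58, IFI6 and IFIT1 were called higher with non-targeting siRNA, IFIT3 was called lower with DAXX siRNA, and 20 members were called in neither. The sign of the fold change was the same in both for 29 of the 32. The share of all genes with the same sign was not determined, and the median of all genes was above 0 in both. Other scalings turned the sign of 2 members with non-targeting siRNA and of 4 with DAXX siRNA. The test of the difference itself, the interaction of siRNA and crotonate, called no member (0.0% of all genes, limma), so none of the genes called with 1 siRNA was shown to respond differently with the other. An unadjusted p under 0.05 was reached by 2 members and by 2.41% of all genes, and limma-voom on recovered reads also called 0. Overlap between crotonate and untreated libraries is given below mainly for called members. A call itself favours groups without overlap, and the share of all genes without overlap was not determined.

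The split of higher and lower calls depended on scaling. Crotonate raised the median of all genes by 0.07 on the log2 scale with non-targeting siRNA, and centring each library on its median moved that to -0.055. Under median centring, 6 members were higher and 4 lower with non-targeting siRNA, and 3 were higher and 4 lower with DAXX siRNA. Quantile scaling gave 5 higher and 4 lower with non-targeting siRNA, and 3 higher and 4 lower with DAXX siRNA. Of all genes, 17.6% were called in either direction with non-targeting siRNA and 16.7% with DAXX siRNA under median centring, and 13.5% and 12.8% in that order under quantile scaling. HERC6, PSMB9 and TRIM21 remained called higher, and IFI35 called lower, with each siRNA under both scalings. The median of the members stayed above 0 with non-targeting siRNA, at 0.21 under centring and 0.14 under quantile scaling. With DAXX siRNA it was -0.03 and -0.05 in that order. The medians of all genes were -0.055 and -0.03 with non-targeting siRNA, and -0.055 and -0.0311 with DAXX siRNA.

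**Figure D1:**
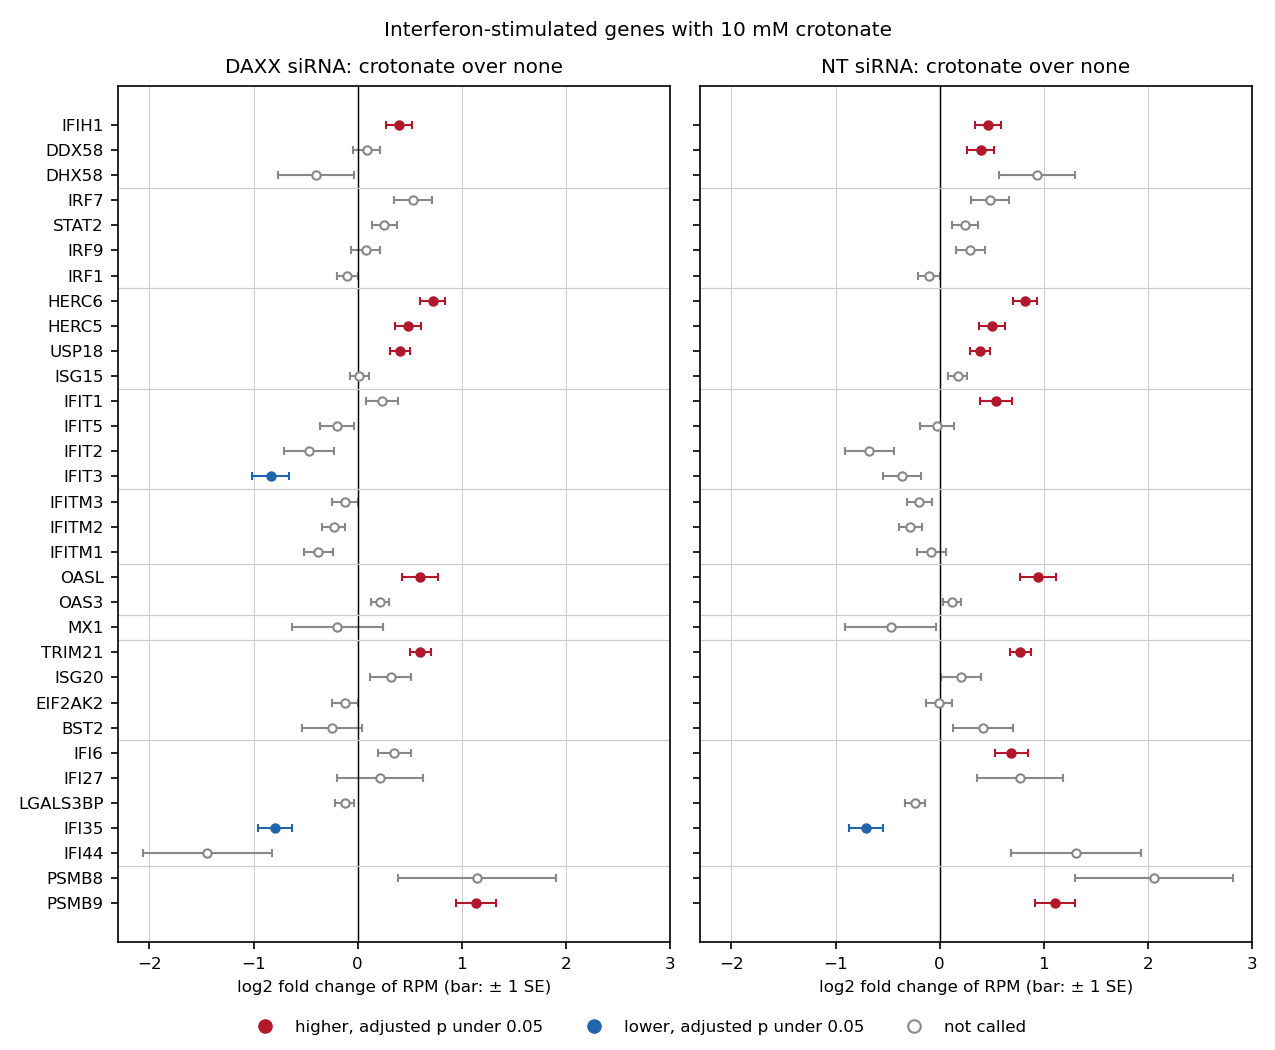
Log2 fold change of RPM (x axis) with 10 mM crotonate over none for each of the 32 tested members (rows, grouped by role), with DAXX siRNA on the left and non-targeting (NT) siRNA on the right; points are limma estimates from 4 against 4 libraries and bars are ± 1 SE. Filled points are called at an adjusted p under 0.05: PSMB9 is at 1.14 and 1.11, while PSMB8, IFI44 and MX1 have the widest bars.

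Among the RNA sensors, IFIH1 (chr2:162267074-162318684, minus strand, GRCh38) encodes MDA5, which detects long double-stranded RNA. With non-targeting siRNA it had 7.96, 7.32, 6.82 and 7.56 RPM in the crotonate libraries, against 5.31, 4.03, 6.15 and 6.30 RPM without crotonate. With DAXX siRNA it had 8.44, 7.84, 8.08 and 7.77 RPM with crotonate, against 5.89, 5.64, 6.04 and 6.82 RPM without. Every crotonate library lay above every untreated library of the same siRNA. The log2 fold changes were 0.46 with non-targeting siRNA (SE 0.13, limma adjusted p = 0.0148, n = 4 per group) and 0.40 with DAXX siRNA (SE 0.13, adjusted p = 0.0347). The call with non-targeting siRNA was lost without replicate 1 of its crotonate group (adjusted p = 0.0502), in a fit of the 2 groups only (0.0527), under median centring (log2 fold change 0.34, adjusted p = 0.0659) and under quantile scaling (0.24, 0.233). The call with DAXX siRNA was lost without replicate 1, 2 or 3 of either DAXX siRNA group (adjusted p between 0.0597 and 0.0962), with no filter on low values (0.0549), under median centring (0.28, adjusted p = 0.122) and under quantile scaling (0.20, 0.342).

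DDX58 (chr9:32455302-32526208, minus strand) encodes RIG-I, the sensor of short triphosphate RNA. It had 12.5, 12.8, 13.8 and 13.1 RPM with crotonate and non-targeting siRNA, against 10.1, 8.35, 9.04 and 12.6 RPM without crotonate, so replicate 4 without crotonate lay within the crotonate range. With DAXX siRNA the libraries overlapped, at 8.58 to 12.4 RPM with crotonate and 9.56 to 11.3 RPM without. Fold changes (log2) were 0.40 with non-targeting siRNA (SE 0.13, limma adjusted p = 0.0436) and 0.09 with DAXX siRNA (SE 0.13, adjusted p = 0.722). The call with non-targeting siRNA was the least stable of all, lost in 15 of 24 other settings, among them the omission of any of 10 single libraries (adjusted p up to 0.112).

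DHX58, the LGP2 helicase that modulates the other sensors, was low. It had 0.919, 0.763, 0.961 and 1.19 RPM with crotonate and non-targeting siRNA, against 0.496, 0.450, 0.642 and 0.415 RPM without crotonate. The DAXX siRNA libraries held 0.399, 0.226, 0.405 and 0.474 RPM with crotonate, against 0.355, 0.253, 0.681 and 0.859 RPM without. With non-targeting siRNA every crotonate library lay above every untreated one, and with DAXX siRNA the groups overlapped. Neither crotonate comparison was called (log2 fold change 0.94, SE 0.36, adjusted p = 0.0908 with non-targeting siRNA, and -0.40, adjusted p = 0.525, with DAXX siRNA, limma). The comparison with non-targeting siRNA passed on log2(RPM + 0.5) (adjusted p = 0.0366) and in a fit of its 2 groups only (0.0365). IFI16, a DNA sensor, had 7 reads in all 16 libraries together and was not tested.

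None of the 4 transcription factors was called in any comparison. STAT2 and IRF9 are parts of the complex that binds the ISRE; IRF7 amplifies interferon production, and IRF1 drives interferon-gamma targets. IRF7 came nearest: it averaged 7.05 ± 0.841 RPM with crotonate and 5.04 ± 0.721 RPM without it (SD, n = 4 each) with non-targeting siRNA, and 6.44 ± 1.5 with crotonate and 4.47 ± 1.13 RPM without it with DAXX siRNA. Its limma adjusted p was 0.0774 with non-targeting siRNA and 0.0533 with DAXX siRNA. Leaving out replicate 2 of the group with non-targeting siRNA alone brought both under the threshold, at 0.038 and 0.0359. Both also passed with the replicate number as a block (0.0435 and 0.0277), and the first in a fit of its 2 groups only (0.0301). It passed too with DAXX siRNA without replicate 3 (0.0265) or 4 (0.0428) of the untreated group and without replicate 1 (0.0395) or 3 (0.0297) of the crotonate group. Replicate 2 of non-targeting siRNA alone is not in the DAXX siRNA comparison and enters it through the shared estimate of spread. In the remaining settings IRF7 was not called. STAT2 lay at 14.0 to 28.0 RPM over all 16 libraries, IRF9 at 6.20 to 10.5 and IRF1 at 15.8 to 21.8.

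Of the 4 members listed with the ISG15 system, HERC6, HERC5 and USP18 were called higher with crotonate with each siRNA, and ISG15 itself was not called. UBA7, the enzyme that activates ISG15 and a gene outside the 41, was not called, with log2 fold changes of -0.33 with non-targeting siRNA and 0.04 with DAXX siRNA (SE 0.52 each, limma adjusted p = 0.732 and 0.976 in that order). HERC6 (chr4:88378739-88443111, plus strand) belongs to the HERC ubiquitin ligases and is the ISG15 ligase in mice, a role that HERC5 has in human cells. HERC6 had 9.71, 10.1, 10.0 and 10.7 RPM with crotonate and non-targeting siRNA, against 4.90, 6.85, 5.72 and 5.64 RPM without crotonate. In DAXX siRNA cells it had 8.02, 8.57, 8.13 and 7.22 RPM with crotonate, against 4.87, 5.34, 5.30 and 3.96 RPM without. The groups did not overlap with either siRNA. The log2 fold changes were 0.82 with non-targeting siRNA (SE 0.12, limma adjusted p = 7.22e-05) and 0.72 with DAXX siRNA (SE 0.12, adjusted p = 0.000266), and both calls held in all 24 other settings tried.

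HERC5 (chr4:88457119-88506163, plus strand), the human ISG15 ligase, had 19.5, 16.2, 15.5 and 17.7 RPM with crotonate and non-targeting siRNA, against 13.7, 8.96, 12.3 and 14.2 RPM without crotonate. With DAXX siRNA it had 17.9, 16.2, 16.9 and 16.3 RPM with crotonate, against 14.1, 11.5, 11.5 and 11.3 RPM without. Again the groups did not overlap, with log2 fold changes of 0.50 with non-targeting siRNA (SE 0.12, adjusted p = 0.00828) and 0.48 with DAXX siRNA (SE 0.12, adjusted p = 0.0115) in limma. Quantile scaling ended both calls (adjusted p = 0.0659 and 0.0733), and median centring ended the call with DAXX siRNA (0.0521).

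USP18 (chr22:18149899-18177397, plus strand) encodes the protease that removes ISG15 and restrains the type I receptor. It had 8.32, 7.65, 7.89 and 7.48 RPM with crotonate and non-targeting siRNA, against 5.57, 6.42, 6.02 and 5.99 RPM without crotonate. The DAXX siRNA libraries held 7.85, 6.91, 8.04 and 7.20 RPM with crotonate, against 6.29, 5.51, 5.53 and 5.26 RPM without. Fold changes (log2) were 0.39 with non-targeting siRNA (SE 0.10, limma adjusted p = 0.00983) and 0.41 with DAXX siRNA (SE 0.10, adjusted p = 0.00674), with no overlap between groups. Median centring and quantile scaling ended both calls, with adjusted p between 0.0574 and 0.33. Several human loci carry copies related to USP18, and how reads shared with them were counted is not given in the sources used here.

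ISG15 (chr1:1001138-1014540, plus strand), the modifier itself, had 68.1, 68.8, 69.2 and 71.3 RPM with crotonate and non-targeting siRNA, against 61.7, 73.0, 57.2 and 55.5 RPM without crotonate. With DAXX siRNA it had 58.3 to 81.0 RPM with crotonate, against 66.7 to 74.0 RPM without. The ranges overlapped with each siRNA, and the log2 fold changes of 0.17 with non-targeting siRNA (SE 0.09, adjusted p = 0.249) and 0.02 with DAXX siRNA (SE 0.09, adjusted p = 0.933) were not called by limma. Without replicate 2 of the group with non-targeting siRNA alone, the highest library of that group, the first became 0.26 (adjusted p = 0.0495).

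The IFIT genes, which encode proteins that bind viral RNA ends, did not move as a group. IFIT1 (chr10:89392546-89406487, plus strand) had 9.55, 7.59, 7.51 and 9.15 RPM with crotonate and non-targeting siRNA, against 5.17, 5.07, 7.09 and 5.96 RPM without crotonate. The groups did not overlap, and the log2 fold change of 0.54 (SE 0.15, limma adjusted p = 0.0195) was called. It was lost without replicate 1 of the untreated group (adjusted p = 0.0648) and without replicate 1 (0.0704) or 4 (0.0634) of the crotonate group, as well as under median centring and quantile scaling. With DAXX siRNA, 6.89, 8.60, 11.8 and 7.67 RPM with crotonate overlapped 7.03, 6.75, 8.54 and 6.95 RPM without (log2 fold change 0.23, adjusted p = 0.354).

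IFIT3 (chr10:89327997-89340971, plus strand), which binds and stabilises IFIT1, went the other way. The DAXX siRNA libraries held 1.29, 1.07, 1.06 and 0.866 RPM with crotonate, against 1.52, 1.95, 1.84 and 2.34 RPM without. With non-targeting siRNA it had 1.35, 1.26, 1.42 and 1.48 RPM with crotonate, against 1.87, 1.87, 1.52 and 1.83 RPM without. The groups did not overlap with either siRNA. The log2 fold change was -0.84 (SE 0.18, limma adjusted p = 0.00277) with DAXX siRNA, held in all 24 other settings, and -0.36 (SE 0.18, adjusted p = 0.195) with non-targeting siRNA, which was called lower under quantile scaling. The counts behind these values were 38 to 90 reads per library.

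IFIT2 averaged 1.72 ± 0.483 RPM with crotonate and 2.71 ± 0.473 RPM without it (SD, n = 4 each) with non-targeting siRNA, and its log2 fold change of -0.68 was not called (SE 0.24, limma adjusted p = 0.0619). It was called lower without replicate 1 of that crotonate group (-0.83, adjusted p = 0.0344) and without replicate 2 of the DAXX siRNA group with crotonate (0.036), and also by limma-voom, with the replicate block and under both scalings (0.0172 to 0.0451). The left-out DAXX siRNA library is in neither group of this comparison and enters it through the shared estimate of spread. In the remaining settings IFIT2 was not called. IFIT5 lay at 20.8 to 43.3 RPM over the 16 libraries and was not called. IFIT1, IFIT2 and IFIT3 lie within the span of LIPA on the opposite strand, and whether strand was used in counting is not given in the sources used here.

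The 3 IFITM genes, whose membrane proteins block viral fusion, had negative log2 fold changes with crotonate in both siRNA groups, and none was called. IFITM3 averaged 134 ± 8.32 RPM with crotonate and 154 ± 27.3 without it (SD, n = 4 each) with non-targeting siRNA, and 146 ± 27 with crotonate and 157 ± 10.1 without it with DAXX siRNA. IFITM1 had the smallest adjusted p of the 3, 0.0734 with DAXX siRNA (log2 fold change -0.38, SE 0.14), and passed at 0.0418 without replicate 2 of the DAXX siRNA group without crotonate. IFITM2 with non-targeting siRNA (log2 fold change -0.28, SE 0.11, adjusted p = 0.1) passed at 0.0417 without replicate 1 of the DAXX siRNA group with crotonate. That DAXX siRNA library is in neither group compared and enters through the shared estimate of spread. Median centring called IFITM2 lower with non-targeting siRNA, and IFITM1 and IFITM2 lower with DAXX siRNA. Quantile scaling called IFITM2 lower with non-targeting siRNA and IFITM1 lower with DAXX siRNA. These genes are close copies of each other, and the annotated span of IFITM1 lies within that of IFITM2, so their reads may have been divided between them.

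OASL (chr12:121019111-121039242, minus strand) is a catalytically inactive relative of the 2′-5′ oligoadenylate synthetases that enhances RIG-I signalling. It had 5.65, 5.16, 4.84 and 4.28 RPM with crotonate and non-targeting siRNA, against 1.72, 3.06, 2.70 and 3.10 RPM without crotonate. With DAXX siRNA it had 4.94, 5.24, 4.52 and 4.47 RPM with crotonate, against 3.30, 3.82, 2.64 and 2.97 RPM without. No crotonate library overlapped an untreated library of the same siRNA. The log2 fold changes were 0.94 with non-targeting siRNA (SE 0.17, limma adjusted p = 0.000663), kept in all 24 other settings, and 0.60 with DAXX siRNA (SE 0.17, adjusted p = 0.0203). The call with DAXX siRNA was lost without replicate 3 of the untreated group (0.0781), without replicate 2 of the crotonate group (0.0641), and under median centring and quantile scaling.

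OAS3, a synthetase that activates RNase L, lay at 64.1 to 89.5 RPM over the 16 libraries and was not called with crotonate (log2 fold change 0.12 with non-targeting siRNA and 0.21 with DAXX siRNA, limma adjusted p = 0.42 and 0.113). Its sign with non-targeting siRNA turned under median centring. MX1, a dynamin-like GTPase against influenza and other viruses, lay at 0.140 to 0.721 RPM and was not called. OAS2 and MX2 had 15 and 14 reads in all 16 libraries together.

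TRIM21 (chr11:4384897-4393702, minus strand), a cytosolic antibody receptor and ubiquitin ligase, had 20.2, 20.6, 18.5 and 22.3 RPM with crotonate and non-targeting siRNA, against 10.2, 13.2, 11.8 and 12.5 RPM without crotonate. The DAXX siRNA libraries held 21.0, 19.3, 21.7 and 20.7 RPM with crotonate, against 14.1, 14.1, 11.7 and 14.6 RPM without. All 8 crotonate libraries lay above all 8 untreated ones. Fold changes (log2) were 0.78 with non-targeting siRNA (SE 0.10, limma adjusted p = 1.36e-05) and 0.605 with DAXX siRNA (SE 0.10, adjusted p = 0.000205), the smallest adjusted p among the members in each comparison, and both were kept in all 24 other settings.

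Of the other antiviral effectors, none was called. EIF2AK2, the kinase PKR that halts translation on double-stranded RNA, lay at 62.0 to 101 RPM over the 16 libraries. ISG20, an exonuclease, lay at 1.84 to 4.14 RPM, and BST2, the tetherin that holds virions at the cell surface, at 0.454 to 1.22 RPM. RSAD2, which encodes viperin, had 11 reads in all libraries together and TRIM22 had 121, and neither was tested.

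Among the IFI genes, IFI6 and IFI35 were called in opposite directions. IFI6 (chr1:27666064-27672198, minus strand) encodes a small protein of mitochondria and the endoplasmic reticulum that limits cell death and flavivirus replication. It had 11.2, 12.5, 10.8 and 12.5 RPM with crotonate and non-targeting siRNA, against 7.30, 8.47, 6.82 and 6.62 RPM without crotonate. With DAXX siRNA it had 5.76, 9.30, 9.55 and 10.5 RPM with crotonate, against 5.33, 6.70, 7.89 and 7.18 RPM without, and replicate 1 with crotonate lay within the untreated range. The log2 fold changes were 0.69 with non-targeting siRNA (SE 0.16, limma adjusted p = 0.00488), kept in all 24 other settings, and 0.35 with DAXX siRNA (SE 0.16, adjusted p = 0.154). Leaving out that replicate 1 gave 0.54 (adjusted p = 0.00851).

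IFI35 (chr17:43006725-43014456, plus strand) encodes a leucine zipper protein that pairs with NMI. It had 3.81, 3.13, 3.49 and 3.15 RPM with crotonate and non-targeting siRNA, against 4.79, 6.44, 5.11 and 5.96 RPM without crotonate. The DAXX siRNA libraries held 3.01, 2.65, 2.5 and 4.56 RPM with crotonate, against 5.56, 5.36, 4.85 and 5.65 RPM without. All 8 crotonate libraries lay below all 8 untreated ones. Fold changes (log2) were -0.71 with non-targeting siRNA (SE 0.16, limma adjusted p = 0.00453) and -0.79 with DAXX siRNA (SE 0.16, adjusted p = 0.00193), and both calls held in all 24 other settings. NMI, its partner and a gene outside the list, also fell, by 0.50 on the log2 scale with non-targeting siRNA (adjusted p = 0.0103) and by 0.67 with DAXX siRNA (0.000983).

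IFI44 was measured with 1 to 19 reads per library. It had 0.336, 0.261, 0.203 and 0.344 RPM with crotonate and non-targeting siRNA, against 0.0292, 0.203, 0.187 and 0.147 RPM without crotonate, and 0.111, 0.141, 0.338 and 0.0619 RPM with crotonate and DAXX siRNA, against 0.482, 0.430, 0.369 and 0.234 RPM with DAXX siRNA alone. The log2 fold changes with crotonate were 1.31 with non-targeting siRNA (limma adjusted p = 0.175) and -1.44 with DAXX siRNA (0.133; SE 0.62 each), and the interaction of -2.75 was not called (SE 0.88, adjusted p = 0.995). Without replicate 1 of non-targeting siRNA alone, which has 1 read, the 1.31 became 0.66 (adjusted p = 0.495). Quantile scaling called the decrease with DAXX siRNA (-1.78, adjusted p = 0.0477). No library of non-targeting siRNA alone reached 0.25 RPM, so IFI44 entered the test through the other 3 groups. IFI27 lay at 0.266 to 1.38 RPM and LGALS3BP, a secreted glycoprotein, at 283 to 411 RPM, and neither was called. Median centring called LGALS3BP lower with crotonate and non-targeting siRNA (-0.36, adjusted p = 0.00907). IFI44L had 9 reads in all libraries and XAF1 had 10.

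PSMB9 and PSMB8 encode catalytic subunits that replace constitutive ones in the immunoproteasome, which trims peptides for MHC class I. PSMB9 (chr6:32844136-32859851, plus strand) had 8.14, 8.57, 8.65 and 7.35 RPM with crotonate and non-targeting siRNA, against 3.15, 4.32, 3.72 and 4.08 RPM without crotonate. With DAXX siRNA it had 4.19, 7.02, 6.12 and 6.29 RPM with crotonate, against 2.72, 2.60, 3.86 and 1.77 RPM without. The groups did not overlap with either siRNA. The log2 fold changes were 1.11 with non-targeting siRNA (SE 0.19, limma adjusted p = 0.000446) and 1.14 with DAXX siRNA (SE 0.19, adjusted p = 0.000341), or 2.15-fold with non-targeting siRNA and 2.2-fold with DAXX siRNA, and both were kept in all 24 other settings.

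PSMB8 had 0.359, 0.602, 0.481 and 0.396 RPM with crotonate and non-targeting siRNA, against 0.0292, 0.203, 0.134 and 0.171 RPM without crotonate. The DAXX siRNA libraries held 0.254 to 0.701 RPM with crotonate, against 0.0284 to 0.573 RPM without. No library of non-targeting siRNA alone reached 0.25 RPM. The log2 fold change of 2.06 with non-targeting siRNA was not called (SE 0.76, limma adjusted p = 0.0731). Without replicate 1 of non-targeting siRNA alone, which has 1 read, it was 1.43 (2.7-fold in place of 4.18-fold, adjusted p = 0.24). It was called without replicate 3 of the DAXX siRNA group without crotonate (0.0127), a library with 1 read of PSMB8 that enters through the shared estimate of spread. It also passed on log2(RPM + 0.5) (0.60, adjusted p = 0.0388) and in a fit of the 2 groups only (0.0424). The annotated spans of PSMB8 and PSMB9 overlap on opposite strands, and PSMB9 also overlaps TAP1, so their reads cannot be told apart if strand was not used. CXCL10, the only chemokine on the list, had 21 reads in all 16 libraries together, 13 of them in the libraries with DAXX siRNA and crotonate.

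**Figure D2:**
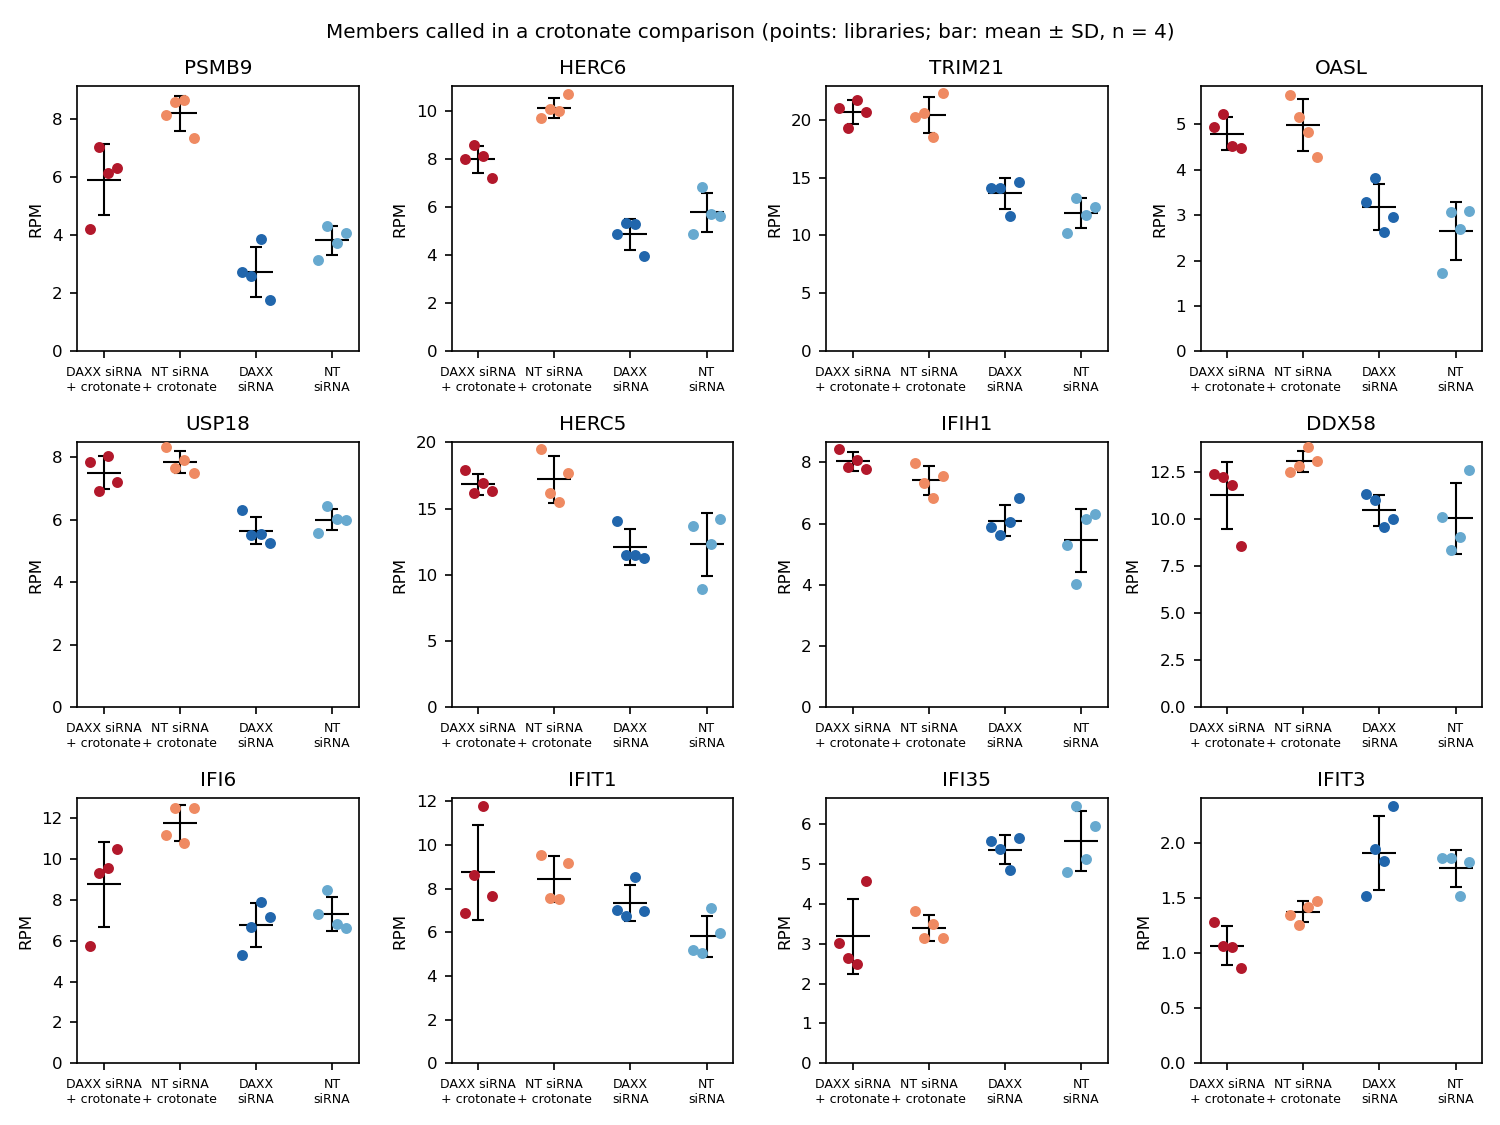
RPM on the y axis (each from 0) of the 12 members called in a crotonate comparison, in the 4 groups on the x axis (NT, non-targeting); points are libraries and bars are the mean ± SD of 4. In the panels of HERC5, HERC6, IFIT3, OASL, TRIM21, USP18 and IFI35 the 8 crotonate libraries do not overlap the 8 untreated ones. In those of DDX58, IFIT1, IFI6 and PSMB9 they do, and in that of IFIH1 they meet at 6.82 RPM. The panels were picked by a call on these libraries, which itself favours groups without overlap. The share of all genes without overlap was not determined.

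DAXX siRNA called no member. Without crotonate, 0 of 32 were called (limma; 0.1% of all genes rose and 0.306% fell), 3 had an unadjusted p under 0.05, a threshold that 12.2% of all genes passed, and limma-voom called 0. The 3 were IFI44 (log2 fold change 1.70, adjusted p = 0.282, and 1.05, adjusted p = 0.526, without replicate 1 of non-targeting siRNA, which has 1 read), PSMB9 (-0.52, SE 0.19, adjusted p = 0.283) and IFIT1 (0.34, SE 0.15, adjusted p = 0.388). PSMB9 overlapped between groups, at 1.77 to 3.86 RPM with DAXX siRNA, against 3.15 to 4.32 RPM with non-targeting siRNA.

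With crotonate, 0 of 32 members differed between DAXX and non-targeting siRNA (limma; 0.389% of all genes were higher and 0.668% lower), 5 had an unadjusted p under 0.05, a threshold that 10.9% of all genes passed, and limma-voom called 0. All 5 had lower means with DAXX siRNA. DHX58 had 0.226 to 0.474 RPM with DAXX siRNA and crotonate, against 0.763 to 1.19 RPM with non-targeting siRNA and crotonate, without overlap (log2 fold change -1.38, SE 0.36, adjusted p = 0.0791). It was called under 3 of 24 other settings, with adjusted p of 0.0391 on log2(RPM + 0.5), 0.0472 in a fit of these 2 groups only, and 0.038 with the replicate number as a block.

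HERC6 had 7.22 to 8.57 RPM with DAXX siRNA and crotonate, against 9.71 to 10.7 RPM with non-targeting siRNA and crotonate (log2 fold change -0.35, SE 0.12, adjusted p = 0.216). IFI6 had 5.76 to 10.5 RPM, against 10.8 to 12.5 RPM (-0.45, SE 0.16, adjusted p = 0.231), and PSMB9 had 4.19 to 7.02 RPM, against 7.35 to 8.65 RPM (-0.49, SE 0.19, adjusted p = 0.308). None of these 3 overlapped between the siRNA groups, and none was called. They and DHX58 were picked by a low unadjusted p, which itself favours groups without overlap. The share of all genes without overlap was not determined. IFIT3 overlapped, at 0.866 to 1.29 RPM with DAXX siRNA and 1.26 to 1.48 RPM with non-targeting siRNA (-0.38, SE 0.18, adjusted p = 0.449). The 2 siRNA comparisons and the 2 crotonate comparisons are drawn from the same 16 libraries, so a DAXX siRNA effect with crotonate shares its libraries with the crotonate effects above.

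**Figure D3:**
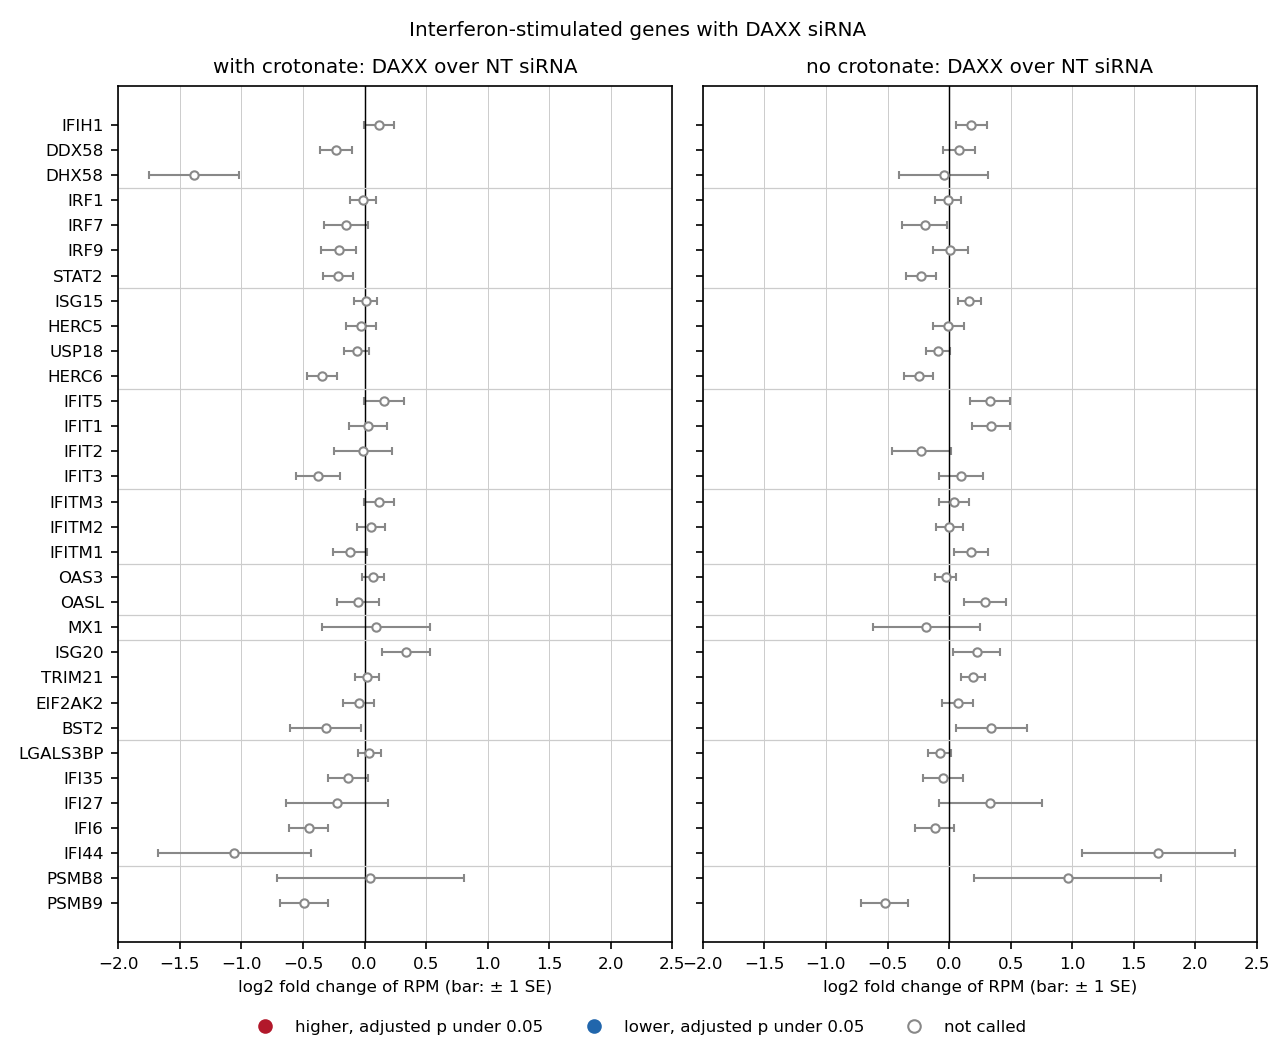
Log2 fold change of RPM (x axis) with DAXX siRNA over non-targeting (NT) siRNA for the 32 tested members (rows, grouped by role), with crotonate on the left and without on the right; points are limma estimates from 4 against 4 libraries and bars are ± 1 SE. No point is filled because no member was called; DHX58 lies at -1.38 with crotonate and IFI44 at 1.70 without (1.05 when NT siRNA replicate 1 is left out).

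Genes that act before the members in the pathway were examined as lists. Their calls, and those of the further list below, are given on the deposited scaling with all libraries only. Whether they hold under other scalings or without single libraries is not given. None of the 10 interferon genes listed passed the minimum, and IFNA2, IFNW1, IFNK and IFNG had no read in any library. IFNB1 had 1 read in total, IFNA1 had 2, and IFNE had the most, 83. Of 11 receptors, JAK kinases and STATs, all tested, 6 rose with crotonate and non-targeting siRNA and 0 fell, and 3 rose with DAXX siRNA. The genes that rose were 54.5% of the list with non-targeting siRNA and 27.3% with DAXX siRNA, beside 13.1% and 13.0% of all genes. IFNAR2, the signalling chain of the type I receptor, averaged 23.1 ± 0.576 RPM with crotonate and 16 ± 0.393 RPM without it with non-targeting siRNA (SD, n = 4 each; log2 fold change 0.53, limma adjusted p = 0.00028). It averaged 21.0 ± 2.56 RPM with crotonate and 15.1 ± 1.00 RPM without it with DAXX siRNA (0.47, adjusted p = 0.000893). JAK2 (0.46), IFNGR1 (0.38) and STAT3 (0.37) followed by size with non-targeting siRNA, at adjusted p between 0.00139 and 0.0255. With crotonate, IFNGR1 was lower with DAXX siRNA, 25.2 ± 3.22 RPM, than with non-targeting siRNA, 35.7 ± 1.31 RPM (log2 fold change -0.51, adjusted p = 0.0142).

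Of 12 tested genes of interferon induction, IRF5 rose with crotonate and non-targeting siRNA (log2 fold change 0.33, limma adjusted p = 0.032). NFKB1 fell with crotonate with each siRNA (-0.30 with non-targeting siRNA and -0.27 with DAXX siRNA, limma adjusted p = 0.00406 and 0.00928). Called genes made up 16.7% of that list with non-targeting siRNA and 8.3% with DAXX siRNA, beside 15.4% of all genes in each. Of 12 negative regulators, SAMHD1, a dNTPase, rose with crotonate to 60.1 ± 3.18 RPM, against 42.0 ± 2.21 RPM, with non-targeting siRNA and to 68.5 ± 7.99 RPM, against 45.2 ± 3.65 RPM, with DAXX siRNA (adjusted p = 0.000286 and 7.1e-05). SAMHD1 was the only gene of that list called in either crotonate comparison (8.3% of the list, beside 15.4% of all genes). PTPN1, a phosphatase of JAK kinases, was higher with DAXX siRNA than with non-targeting siRNA in the presence of crotonate (0.31, adjusted p = 0.0255).

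A further list of 33 interferon-responsive genes outside the 41 had 25 tested. Among these, 6 rose and 2 fell with crotonate and non-targeting siRNA, and 4 rose and 1 fell with DAXX siRNA. In each comparison 15.4% of all genes were called in either direction. The list did not shift upward as a whole. Its median log2 fold change was 0.0299 with non-targeting siRNA, beside 0.074 for all genes, and 0.0194 with DAXX siRNA, beside 0.0614. LAMP3, a lysosomal membrane protein, averaged 8.25 ± 0.571 RPM with crotonate and 3.39 ± 0.480 RPM without it with non-targeting siRNA, and 6.34 ± 0.692 RPM with crotonate and 1.91 ± 0.170 RPM without it with DAXX siRNA (log2 fold change 1.29 with non-targeting siRNA and 1.73 with DAXX siRNA, limma adjusted p = 9.39e-07 and 3.4e-08 in that order). It was also lower with DAXX siRNA alone than with non-targeting siRNA alone (-0.82, adjusted p = 0.0023). UBE2L6, the conjugating enzyme of ISG15, averaged 19.4 ± 1.96 RPM with crotonate and 12.7 ± 1.60 RPM without it with non-targeting siRNA (0.62, adjusted p = 0.000779), and rose by 0.50 with DAXX siRNA (adjusted p = 0.00469). EPSTI1 (2.15, adjusted p = 0.0041) and SAMD9 (0.69, adjusted p = 0.0289) rose with non-targeting siRNA, TDRD7 (0.36) and TRIM5 (0.32) with DAXX siRNA, and TRIM14 fell with non-targeting siRNA (-0.25, adjusted p = 0.0402). The value of EPSTI1 rests on few reads: the libraries of non-targeting siRNA alone held 24 together, at 0.0876 to 0.294 RPM.

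Anti-Kcr signal over the members was set beside the single input library. Values are the deposited scaled reads, in which each library was multiplied by 1 factor. How far that factor alters a change shared by all regions cannot be told from these values. A shift of all regions with crotonate remained in them, with median log2 fold changes of -0.19 with non-targeting siRNA and -0.16 with DAXX siRNA. Libraries 1A and 1B of each siRNA group without crotonate differed by about read sampling (chi-squared over degrees of freedom 1.0125 with DAXX siRNA and 1.0095 with non-targeting siRNA) and were counted as 1 sample, which left 3 samples without and 2 with crotonate for each siRNA. None of the 25 regions with a member's symbol was called in any of the 4 comparisons (limma, 0.0% of all regions in each). At an unadjusted p under 0.05 there was 1 region in each of the 2 crotonate comparisons, 1 for DAXX siRNA without crotonate and 0 with it. Of all regions, 13.3% passed that threshold with crotonate and non-targeting siRNA, 8.5% with crotonate and DAXX siRNA, 2.38% for DAXX siRNA without crotonate and 4.17% with it. By limma-voom no region of the 25 was called either.

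Of the 31 members with a RefSeq promoter, 14 (45.2%) had an anti-Kcr region over the promoter window, against 42.0% of all promoters. Among tested members it was 13 of 26 (50%), against 69.0% of the promoters of all genes tested. Members called with crotonate had a region in 4 of 10 cases, and tested members that were not called in 9 of 16. The mean over all samples divided by the input lay between 1.55 (LGALS3BP, within a region of 91950 bases) and 2.63 (HERC5). That ratio was not determined for all regions, and its level depends on the scaling of the single input library. IFIH1, HERC5, PSMB9 and IFIT3 were the 4 called members with a region over this window.

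The region over the PSMB9 promoter printed above (chr6:32849701-32855250) had 113 and 87.3 scaled reads with DAXX siRNA and crotonate, 104 and 86.2 with non-targeting siRNA and crotonate, 104, 91.3 and 108 with DAXX siRNA alone and 138, 101 and 118 with non-targeting siRNA alone, beside 61.4 in the input. The crotonate samples overlapped the untreated ones with each siRNA, and the log2 fold changes with crotonate were -0.02 (SE 0.19, limma adjusted p = 0.983) with DAXX siRNA and -0.32 (SE 0.19, adjusted p = 0.464) with non-targeting siRNA.

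Over the HERC5 promoter (chr4:88456501-88457850) the samples with crotonate held 39.3 and 30.0 scaled reads with DAXX siRNA and 33.7 and 13.6 with non-targeting siRNA. Those without crotonate held 34.4, 49.2 and 22.4 with DAXX siRNA and 36.2, 27.2 and 19.9 with non-targeting siRNA, beside 11.6 in the input. Over the IFIH1 promoter (chr2:162318001-162319500) they held 22.5 and 31.3 with DAXX siRNA and crotonate and 26.9 and 36.3 with non-targeting siRNA and crotonate, then 28.8, 43.5 and 32.9 with DAXX siRNA alone and 33.7, 21.8 and 27.9 with non-targeting siRNA alone. The groups overlapped in both regions, and no comparison was called.

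The region over the IFIT3 promoter (chr10:89326951-89328450), to which the table gives the symbol LIPA, had 39.4, 39.3 and 46.1 scaled reads with DAXX siRNA, against 26.7, 32.7 and 12 with non-targeting siRNA. These did not overlap (log2 fold change 0.92, SE 0.29, unadjusted p = 0.00353), but the limma adjusted p over all regions was 1. The IFIT5 region (chr10:89413951-89416950) had 40.4 and 37.4 scaled reads with crotonate and non-targeting siRNA, against 64.0, 61.3 and 67.8 without crotonate (-0.73, SE 0.21, adjusted p = 0.232). The regions at the starts of the called members OASL, USP18 and IFI35 were not called in any comparison, with a smallest limma adjusted p of 0.523 for USP18 with non-targeting siRNA.

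The 25 regions had a median log2 fold change with crotonate of -0.26 with non-targeting siRNA, where that of all regions was -0.19, and 23 of the 25 were negative. With DAXX siRNA the median was -0.05, beside -0.16 for all regions. Centring each library on its median moved the median of all regions to -0.02 in both and that of the 25 to -0.09 with non-targeting siRNA and 0.08 with DAXX siRNA.

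**Figure D4:**
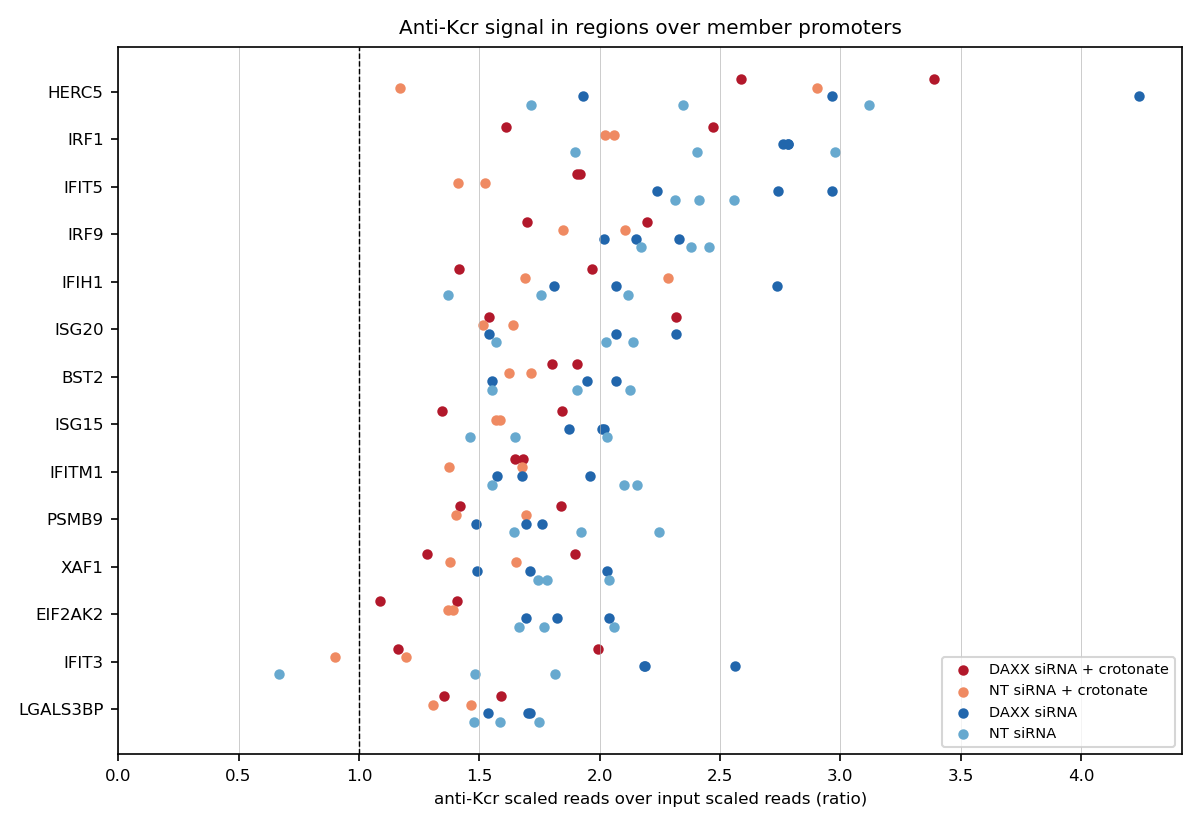
Anti-Kcr scaled reads divided by those of the single input library (x axis, ratio; dashed line at 1) in the 14 regions over member promoters (rows), with 1 point per sample and colours for the 4 groups (NT, non-targeting; 2 samples with crotonate and 3 without). The crotonate points of IFIT5 with NT siRNA (40.4 and 37.4 scaled reads) lie left of those without crotonate (61.3 to 67.8), and IFIT3 is the row with samples below the input, at 16.2 and 12 scaled reads against 18.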

How the data were processed

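RNA-seq and anti-Kcr ChIP-seq of HCT116 cells were analysed from tables of log2 values deposited by the authors. Per the submitters' processing notes, reads were trimmed with Trim Galore 0.6.2 (RNA) or 0.6.5 (ChIP) and cutadapt 2.3, and HISAT2 2.2.1, Bowtie2, MACS and GRCh38 were used. The RNA values are log2 RPM with 0 reads entered as 0.9; the ChIP values are log2 scaled reads. Neither is divided by length. From them, limma 3.58.1 (R 4.3.3, trended prior, 1 coefficient per group) was fitted over all 17973 genes with at least 0.25 RPM in at least 4 libraries and over all 49916 regions, with Benjamini-Hochberg adjustment; "called" means adjusted p under 0.05. Fits were tested on simulated data. Alternatives were other filters, scalings and tests, a pseudocount, the replicate block and leaving out libraries. The members and lists were chosen with earlier results of these data known. Named by rule are called members, with values in every library; DHX58, ISG15, IFI44 and PSMB8 were given so after their values were seen, as were promoter regions.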

Additional observations from a re-analysis of the deposited data

Results flagged for a closer look

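Over the 32 tested members and 4 RNA groups, 128 sets of 4 libraries were examined, and in 7 of them (5.47%) 1 library stood far from the other 3. Chance flags about 1 set in 20. In the DAXX siRNA group without crotonate, ISG15 was at 74.0 RPM in replicate 4 and 66.7 to 68.0 in the others, HERC5 was at 14.1 RPM in replicate 1 and 11.3 to 11.5 in the others, and in replicate 3 IFIT1 was at 8.54 RPM (others 6.75 to 7.03) and TRIM21 at 11.7 RPM (others 14.1 to 14.6). IFI27 was at 1.38 RPM in replicate 2 with crotonate and non-targeting siRNA (others 0.516 to 0.661) and at 0.709 RPM in replicate 4 with non-targeting siRNA alone (others 0.321 to 0.374). IFIT3 was at 1.52 RPM in replicate 3 of that last group, with the others at 1.83 to 1.87.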

How the results depend on the processing

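Of the 20 calls of members with crotonate, 11 were kept in all 24 other settings, 9 were lost in at least 1, and no value reversed. Leaving out a library of a group outside the comparison cannot move the fold change. Neither can other filters, the replicate block or a fit of the 2 groups only. In those settings a reversal was not possible and only the adjusted p could change. With non-targeting siRNA, 9 to 12 members were called when 1 library was left out and 9 to 13 under other settings; with DAXX siRNA, 7 to 10 under both. For DAXX siRNA against non-targeting siRNA with crotonate, 1 member (DHX58, lower) was called on log2(RPM + 0.5), with the replicate block and in a fit of the 2 groups only, against 0 otherwise; the cause was not tested. Deviations from group means correlated at -0.251 to 0.188 between same-numbered RNA libraries (median 0.065). Between differently numbered ones they correlated at -0.187 to 0.309 (median -0.024). These overlapping ranges do not settle whether the numbers pair the samples. For crotonate against none, the replicate block called 12 members with non-targeting siRNA and 10 with DAXX siRNA. Of all genes it called 17.5% and 17.6% in that order, against 15.4% in each without the block. In ChIP-seq, 0 member regions were called in any setting, including the replicate block, and 2 crotonate samples per siRNA limit what could be detected. Over all features, calls for DAXX siRNA without crotonate were 117 genes with the block and 29 in a fit of the 2 groups, against 73. Over all regions, calls with crotonate and non-targeting siRNA were 97 with 1A and 1B kept apart and 410 with the block, and 3 in each with DAXX siRNA, against 0. Members under 0.25 RPM were not tested.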
